A study of Mus musculus with 2 samples.

Results

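Cell cycle genes were followed in microglia, the resident macrophages of the brain, sorted from the hypothalamus of young wild-type mice 20 hours after an injection of dye-labelled plasma protein. The 39 genes were chosen by name and divided by phase: 17 of DNA replication and the G1/S step (the replication set), 3 D-type cyclins, 18 of G2 phase and mitosis (the mitotic set) and the linker histone gene Hist1h1b. All 39 were among the 31053 genes listed in the files. Cells from several pooled mice were divided by flow sorting into plasma-negative microglia, without the dye, and plasma-positive microglia, which carried it. Each sort gave 1 droplet library of 3' tags, in which every captured RNA molecule is counted once by its unique molecular identifier (UMI). With 1 library per group no test could be made, and every interval below is a 95% interval for counting error only that does not cover how mice, sorts or preparations vary.

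The plasma-negative library kept 9860 cells with a median of 3270.5 UMIs, and the plasma-positive library kept 10362 cells with a median of 3753 UMIs. A level is in CPM: a gene's UMIs in every 1e+06 UMIs of that library or class of cells. Counts were made near the 3' end with no correction for length, so CPM values were compared between libraries or cells, not between genes. The cells matched their label: at least 4 of 11 microglia markers were seen in 9831 plasma-negative and 10329 plasma-positive cells. The microglia markers summed to 30568 and 29096 CPM, and no neutrophil marker had a UMI in either library. The libraries also differed outside the cell cycle: Apoe, an apolipoprotein gene, stood at 171 and 1190 CPM, and 15 interferon response genes summed to 343 and 644 CPM. Markers of border macrophages (3.62 and 6.19 CPM) and neurons (2.26 and 4.14 CPM) were low and also higher in the plasma-positive library.

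A dividing cell first loads the MCM helicase onto replication origins, then copies its DNA and makes new histones, and finally condenses, aligns and separates its chromosomes. D-type cyclins answer to growth signals early in this sequence. E2F factors bind the promoters of many replication genes, and a later set of mitotic promoters carries an element called CHR, the cell cycle genes homology region, often with CCAAT boxes, which the MuvB complexes read. Microglia of the healthy adult brain renew themselves slowly by local division, so few of them are expected to be in cycle at any time.

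The promoters of the sets held different elements. RefSeq promoters of the mouse build GRCm38.p6, from 250 bases before to 50 after an annotated start, were matched for 30 of the 39 genes, and Mcm4, Gins2, Ccne2, Ccnd1, Ccnd2, Ccna2, Aurkb, Tpx2 and Hist1h1b had none. On either strand, E2F letters (TTCCCGC or else TTCGCGC or else TTGCCGC or else TTGGCGC) stood in 9 of 14 replication promoters and 3 of 15 mitotic promoters, against 9.69% of 27025 promoters. CHR letters (TTTGAA or TTCGAA) stood in 2 of 14 replication promoters and 11 of 15 mitotic promoters, against 19.4% of all promoters. All 11 of those mitotic promoters also held CCAAT, a pair of letter sets found together in 7.70% of all promoters. The matched promoters were rich in CG pairs, with a median of 22.5 in the replication set and 24 in the mitotic set against 7 over all promoters. Among the 9514 promoters with at least 15 CG pairs, E2F letters were in 21.1% and CHR letters in 10.2%. A match shows only that the letters are present in the window, not that a factor binds there.

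The 5 replication promoters with E2F letters in the 150 bases just before the start show this element. They lie in GRCm38.p6 at these places: Mcm5 at chr8:75109359-75109508 (plus strand), Mcm6 at chr1:128359706-128359855 (minus strand), Rrm1 at chr7:102441545-102441694 (plus strand), Cdc6 at chr11:98908001-98908150 (plus strand) and Hells at chr19:38930840-38930989 (plus strand). Capitals mark E2F letters on either strand. Where matches overlap, as in the paired runs of Mcm6, the capitals run together, and in Mcm5 the first capitals belong to a match that begins before the window.
Mcm5: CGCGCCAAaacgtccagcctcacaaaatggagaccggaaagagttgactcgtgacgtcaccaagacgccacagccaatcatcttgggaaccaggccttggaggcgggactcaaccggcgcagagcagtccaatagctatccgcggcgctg
Mcm6: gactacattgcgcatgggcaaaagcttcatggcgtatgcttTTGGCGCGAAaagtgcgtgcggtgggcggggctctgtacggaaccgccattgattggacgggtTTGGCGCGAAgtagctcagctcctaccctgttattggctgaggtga
Rrm1: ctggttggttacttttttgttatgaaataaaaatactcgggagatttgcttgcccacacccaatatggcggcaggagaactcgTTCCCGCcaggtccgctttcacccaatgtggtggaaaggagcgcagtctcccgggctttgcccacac
Cdc6: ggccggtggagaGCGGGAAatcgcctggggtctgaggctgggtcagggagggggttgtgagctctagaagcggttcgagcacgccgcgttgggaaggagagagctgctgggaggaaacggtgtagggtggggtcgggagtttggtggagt
Hells: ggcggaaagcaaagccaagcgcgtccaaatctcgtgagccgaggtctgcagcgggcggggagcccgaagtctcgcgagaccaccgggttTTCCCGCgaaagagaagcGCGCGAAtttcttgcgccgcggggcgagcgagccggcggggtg

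The 5 mitotic promoters with CHR letters in the same 150 bases are shown for comparison: Top2a at chr11:99024190-99024339 (minus strand), Mki67 at chr7:135716380-135716529 (minus strand), Cdk1 at chr10:69352913-69353062 (minus strand), Ube2c at chr2:164769779-164769928 (plus strand) and Kif11 at chr19:37376232-37376381 (plus strand). Capitals mark CHR letters and, in Mki67 and Cdk1, also 1 run each of E2F letters (TTGGCGC and TTCGCGC).
Top2a: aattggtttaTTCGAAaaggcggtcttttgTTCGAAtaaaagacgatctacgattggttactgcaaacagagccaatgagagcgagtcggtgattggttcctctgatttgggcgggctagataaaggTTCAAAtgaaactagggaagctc
Mki67: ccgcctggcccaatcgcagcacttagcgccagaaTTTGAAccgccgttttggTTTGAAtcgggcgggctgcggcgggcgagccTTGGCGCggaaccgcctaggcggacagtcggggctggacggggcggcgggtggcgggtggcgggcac
Cdk1: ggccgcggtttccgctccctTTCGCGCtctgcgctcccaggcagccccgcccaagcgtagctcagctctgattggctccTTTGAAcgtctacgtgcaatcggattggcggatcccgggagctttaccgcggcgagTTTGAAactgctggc
Ube2c: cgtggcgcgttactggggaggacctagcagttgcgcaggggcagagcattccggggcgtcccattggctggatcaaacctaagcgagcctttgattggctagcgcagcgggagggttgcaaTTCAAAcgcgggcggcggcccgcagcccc
Kif11: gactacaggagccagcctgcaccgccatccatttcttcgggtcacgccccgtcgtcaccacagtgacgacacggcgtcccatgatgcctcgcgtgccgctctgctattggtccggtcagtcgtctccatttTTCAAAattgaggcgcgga

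By their medians, the mitotic genes had higher ratios between the libraries than the replication genes. Of the 36 genes with at least 1 CPM in a library, the plasma-positive library held 19 at a level at least 1.5-fold higher and 0 at a level at least 1.5-fold lower, while among all 11645 genes at that minimum 2.07% were higher and 0.936% lower by that rule. The median log2 ratio was 0.64 over the 36 genes and -0.04 over all genes. The 17 mitotic genes at the minimum had a median log2 ratio of 0.92 and 13 of them passed 1.5-fold; the 16 replication genes had a median of 0.34 and 5 passed. In the CPM range of the mitotic genes, where small counts alone spread ratios, 6.70% of 2596 genes were higher and 3.62% lower by the same rule. Cdc6, Ccnd2 and Bub1 lay under the minimum, so they enter no count.

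**Figure D1:**
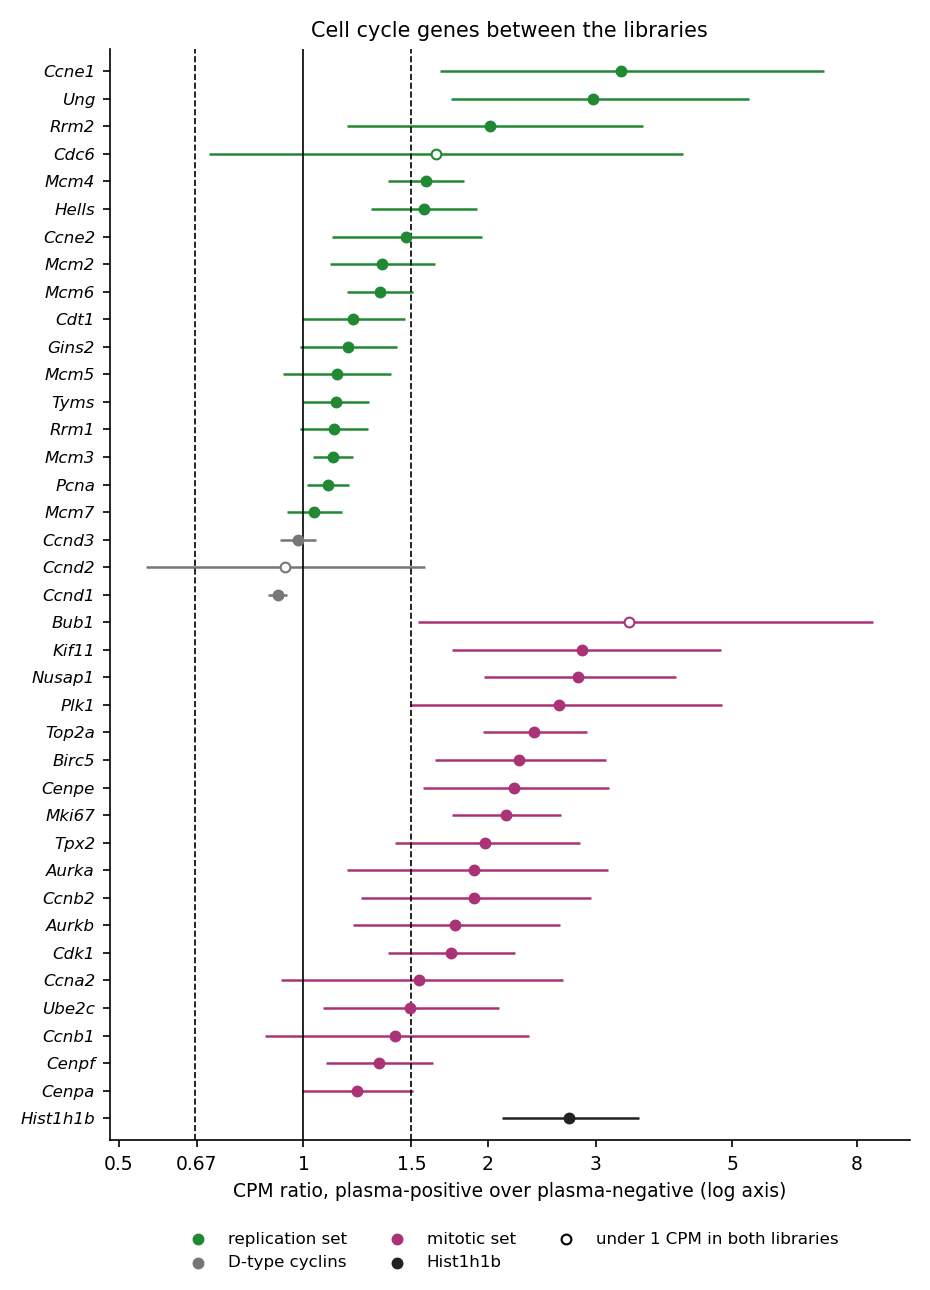
CPM ratio of the plasma-positive to the plasma-negative library for the 39 genes, on a log axis, with 95% counting intervals; solid line at 1, dashed lines at 1.5-fold either way, open points under 1 CPM in both libraries. The mitotic genes and Hist1h1b lie to the right, from 1.22 for Cenpa to 2.84 for Kif11 among those at the minimum, most replication genes lie between 1.04 and 1.58, and the D-type cyclins lie just below 1, with Ccnd3 at 1.01 under TMM scaling.

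The helicase subunits ran from 1.04-fold to 1.58-fold. Mcm2 to Mcm7 form the ring that unwinds DNA at the fork. Mcm3 stood at 34.6 CPM in plasma-negative and 38.7 CPM in plasma-positive cells, a ratio of 1.12 (1.04 to 1.2). Mcm7 stood at 19 and 19.8 CPM (ratio 1.04), Mcm5 at 4.92 and 5.57 CPM (1.13), Mcm6 at 12.1 and 16.1 CPM (1.33) and Mcm2 at 4.84 and 6.50 CPM (1.34). Only Mcm4 passed 1.5-fold among the 6 subunits, at 8.72 and 13.8 CPM (1.58, 1.37 to 1.82). Their loaders and partners were in the same range: Cdt1, which brings the ring to origins with Cdc6, stood at 5.21 and 6.29 CPM (1.21), and Gins2, part of the active helicase, at 5.99 and 7.10 CPM (1.18). Cdc6 itself had 9 and 18 UMIs.

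The genes for making and handling DNA split more widely. Pcna, the clamp that holds the polymerase on DNA, stood at 32.5 and 35.7 CPM (1.10). Rrm1, the large subunit of ribonucleotide reductase, at 12.2 and 13.7 CPM (1.12), and Tyms, which makes thymidylate, at 12.6 and 14.3 CPM (1.13), were as close. Rrm2, the small subunit that limits the same reductase, stood instead at 0.579 and 1.17 CPM (2.02, 1.18 to 3.58), from 20 and 49 UMIs. Ung, which removes uracil from DNA, stood at 0.521 and 1.55 CPM (2.97, 1.74 to 5.32). Hells, a chromatin remodeller of the SNF2 family, stood at 4.46 and 7.0 CPM (1.57). The E-type cyclins, which drive entry into S phase with Cdk2, stood at 0.319 and 1.05 CPM for Ccne1 (3.29, 1.67 to 7.06) and at 2.35 and 3.45 CPM for Ccne2 (1.47). The genes past 1.5-fold were thus Mcm4 and Hells at middle levels and Rrm2, Ung and Ccne1 at 65 UMIs or fewer in each library.

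The D-type cyclins did not follow either set. Ccnd1 stood at 166 CPM in plasma-negative and 151 CPM in plasma-positive cells, a ratio of 0.91 (0.88 to 0.94), and had a UMI in 35.6% and 37.0% of cells. Ccnd3 stood at 45.7 and 44.8 CPM (0.98, 0.92 to 1.05). Ccnd2 had only 30 and 34 UMIs. These cyclins partner Cdk4 and Cdk6, and in these microglia their transcripts were spread over many cells: the 1% of cells richest in them held 8.53% and 7.98% of their UMIs.

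The cyclin and kinase genes of G2 and mitosis were higher in the plasma-positive library. Cdk1, the kinase that starts mitosis, stood at 3.07 and 5.33 CPM (1.74, 1.37 to 2.21). Its partners stood at 0.695 and 1.07 CPM for Ccna2 (1.54, 0.92 to 2.65), at 0.811 and 1.14 CPM for Ccnb1 (1.41) and at 0.956 and 1.81 CPM for Ccnb2 (1.89). Plk1, a kinase of mitotic entry and spindle assembly, stood at 0.492 and 1.29 CPM (2.61). The Aurora kinases stood at 0.753 and 1.43 CPM for Aurka, which works at the spindle poles (1.90), and at 1.19 and 2.10 CPM for Aurkb, which corrects chromosome attachment (1.77). Birc5, a subunit of the same Aurkb complex, stood at 1.59 and 3.57 CPM (2.24). The interval of Ccna2 includes 1, so its ratio could not be told from 1 at this depth, and the same held for Ccnb1 (0.87 to 2.33).

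Genes of chromosomes, centromeres and the spindle ranged from 1.22-fold to 2.84-fold. Top2a, the topoisomerase that untangles sister DNA, stood at 4.08 and 9.72 CPM (2.38, 1.96 to 2.90). Mki67, which coats mitotic chromosomes, stood at 3.91 and 8.36 CPM (2.14, 1.75 to 2.63). The centromere genes lay lowest apart from Cenpe: Cenpa, the centromeric histone, stood at 4.52 and 5.53 CPM (1.22), Cenpf at 4.66 and 6.19 CPM (1.33) and Cenpe, a motor of the kinetochore, at 1.36 and 3.0 CPM (2.21). The spindle genes stood at 0.637 and 1.81 CPM for the motor Kif11 (2.84, 1.75 to 4.80), at 1.22 and 3.41 CPM for Nusap1 (2.80) and at 1.42 and 2.81 CPM for Tpx2 (1.98), both microtubule proteins. Ube2c, which marks cyclins for destruction at the end of mitosis, stood at 1.71 and 2.55 CPM (1.49). The checkpoint kinase gene Bub1 had 8 and 33 UMIs.

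Hist1h1b encodes a linker histone made while DNA is copied. It stood at 2.32 and 6.29 CPM, a ratio of 2.71 (2.11 to 3.53), from 80 UMIs in 14 cells of the plasma-negative and 264 in 42 of the plasma-positive library. Transcripts of this kind mostly end without the poly(A) tail on which these libraries are primed, and histone genes resemble each other, so their counts are uncertain.

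Summed, the replication set stood at 161 CPM in plasma-negative and 192 CPM in plasma-positive cells (1.19, 1.15 to 1.23). The mitotic set stood at 33.3 and 61.9 CPM (1.86, 1.73 to 1.99) and the D-type cyclins at 213 and 196 CPM (0.92, 0.90 to 0.95). These intervals treat every UMI as independent, although few cells carry most of the mitotic ones. The 6 richest cells held 48.7% of the 1150 mitotic UMIs of the plasma-negative library and 25.9% of the 2599 of the plasma-positive library. The interval of the mitotic sum is therefore too narrow, and the number of cells is the safer count.

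The sets were spread over cells in unlike ways. Mitotic UMIs sat in few cells: the richest 1% of cells (99 and 104 cells) held 77.7% of them in the plasma-negative library and 80.9% in the plasma-positive library. The same share of cells held 14.1% and 18.3% of the replication UMIs, and all UMIs of Hist1h1b. Cells with replication UMIs fell off, from 2365 and 2562 cells with 1 UMI to 688 and 887 cells with 2 and 255 and 297 cells with 3. For the mitotic set, 289 and 456 cells held 1 UMI, 38 and 55 held 2, and 7 and 8 held 3. A long tail followed: 3 and 8 cells held 4, 2 and 11 held 5 to 9, 8 and 8 held 10 to 19, and 8 and 34 held 20 or more. In all, 16 plasma-negative and 42 plasma-positive cells held 10 or more, with at most 113 and 164 in a cell. Since these bins differ in width, their counts do not show a gap or a separate group.

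**Figure D2:**
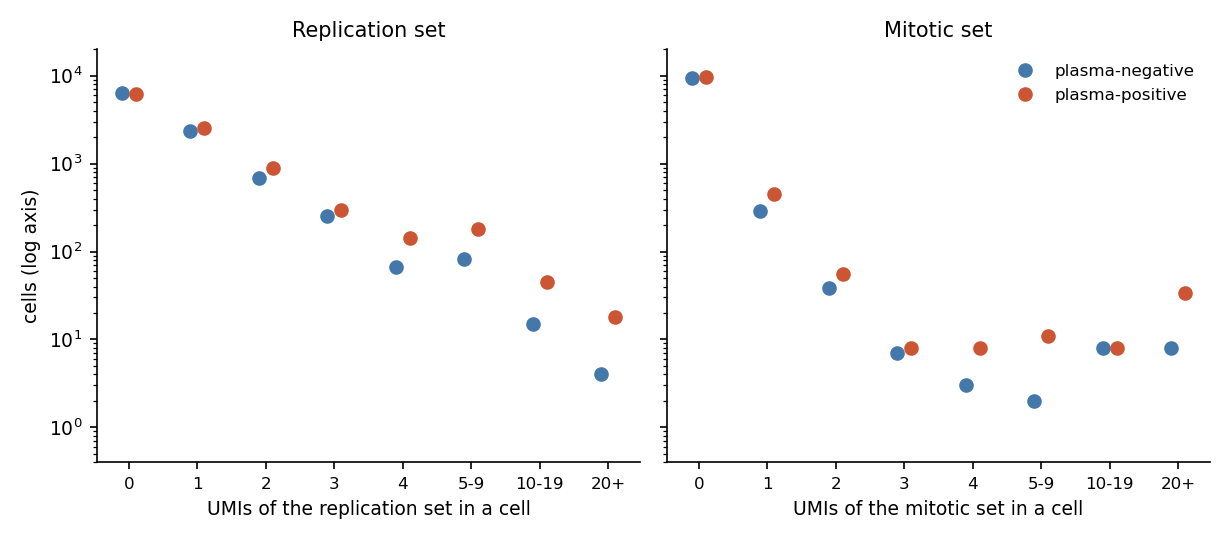
Cells (log axis) by the number of UMIs of the replication set (left) and of the mitotic set (right) that they held, in both libraries, not thinned. The mitotic set has a long tail, with 16 plasma-negative and 42 plasma-positive cells at 10 or more UMIs. Bins are wider from 5 UMIs on, so a rise there does not show a separate group.

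The plasma-positive library held a larger share of cells with the mitotic set. A cell was counted as holding a set with at least 3 of its UMIs. Because the libraries differed in depth, each cell was first thinned to 1000 UMIs, which left out 796 and 603 shallower cells. After thinning, 15 of 9064 plasma-negative cells (0.165%, 0.093 to 0.273) and 38 of 9759 plasma-positive cells (0.389%, 0.276 to 0.534) held the mitotic set, a ratio of 2.35 (1.26 to 4.60). Thinned to 2000 UMIs, the numbers were 18 (0.218%) and 41 (0.450%), a ratio of 2.06 (1.16 to 3.81). Without thinning they were 28 (0.284%) and 69 (0.666%), a ratio of 2.35 (1.49 to 3.78). Those 28 and 69 cells are called mitotic cells below, for the genes they held and not for a phase. Within them the mitotic sum stood at 5201 CPM (4844 to 5578) and 4972 CPM (4758 to 5193). The same UMIs chose the cells, and 6 plasma-negative cells held 560 of 785, so these intervals cannot compare the libraries. At 10 or more mitotic UMIs the shares were 0.162% and 0.405% (ratio 2.5, 1.38 to 4.76).

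For the replication set, thinned shares were 0.419% and 0.533% (38 and 52 cells), a ratio of 1.27 (0.82 to 1.98), which was not detectable as a difference at this depth. Thinned to 2000 UMIs, which left out 1611 and 1253 shallower cells, the ratio was 1.5 (1.17 to 1.95). The part of depth in this difference was not tested. Without thinning they were 4.29% and 6.58% (423 and 682 cells), a ratio of 1.53 (1.36 to 1.74). Cells with at least 10 replication UMIs numbered 19 and 63 (0.193% and 0.608%, ratio 3.16, 1.86 to 5.58), not thinned. Of these, 9 and 38 held fewer than 3 mitotic UMIs. The tail of the replication set was thus also fuller in the plasma-positive library, although its sum differed by 1.19-fold.

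Most of the mitotic sum's difference rested on the cells with at least 3 mitotic UMIs, which follows in part from choosing them by those UMIs. Most of the replication sum's difference remained without them. Leaving them out, as was decided after the values were seen, the mitotic sum was 10.6 and 13.6 CPM (1.28, 1.12 to 1.47) and the replication sum 156 and 177 CPM (1.13, 1.09 to 1.17). Of the 39 genes, 19 were then at the minimum of 1 CPM, against 36 before. The genes past 1.5-fold numbered 3, against 1.54% of all genes higher at this setting: Mcm4 (8.52 and 13.3 CPM) and Ung (0.524 and 1.52 CPM) of the replication set and Cdk1 (2.01 and 3.13 CPM) of the mitotic set. The fall from 19 to 3 is in good part one of level, since genes that fell under the minimum could keep their ratio, such as Top2a (10 and 31 UMIs, 2.56), Tpx2 (5 and 23 UMIs, 3.80) and Ccne1 (3 and 21 UMIs, 5.79). Mki67 had 97.8% and 97.2% of its UMIs in those cells, Top2a 92.9% and 92.4%, Rrm2 90.0% and 93.9%, and Bub1 all of them. For Mcm3 the figures were 0.836% and 3.57% and for Ccnd1 0.262% and 0.568%. Since mitotic UMIs chose those cells, the fall of the mitotic sum and the mitotic shares describe the choice, so this step cannot compare the sets. The shares of Rrm2, Mcm3, Ccnd1 and Hist1h1b (90.0% and 95.5%) were not used in the choice.

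The mitotic and the replication set shared cells. Of the 28 plasma-negative cells with the mitotic set, 14 also held the replication set (95% interval 30.6% to 69.4%), and of the 69 plasma-positive cells 37 did (53.6%, 41.2 to 65.7), not thinned. Among cells without the mitotic set, 4.16% and 6.27% held it. Thinned, 6 of 15 and 10 of 38 did, against 0.354% and 0.432% of the others. Depth differed between these cells: the median was 4753.5 and 5039 UMIs with the mitotic set and 3037.5 and 3405 UMIs in cells with no UMI of either set. Conversely, 409 and 645 cells held the replication set without the mitotic set, and 32 and 42 did after thinning to 1000 UMIs. Unthinned, their median depth was 4725 and 5375 UMIs. Of them, 14.2% and 14.1% were among the cells with the highest doublet scores, against 6.63% and 6.55% of cells with no UMI of either set. The part of depth and doublets in this class was not tested.

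Each gene's level was then read in cells classed by the other genes alone, leaving the gene itself out of the class. Cells with other replication genes but without the mitotic set are called replication cells here. Ratios were set against cells with 0 UMIs of the other genes of both sets, called cells without either set from here on. This class is narrower than all cells that hold neither set. Over all genes of the sets, 6200 and 5951 cells had 0 UMIs, while 9423 and 9648 held neither set, not thinned. Ratios against the wider class were not taken. Among the 17 replication genes, apart from Cdc6 and Rrm2, replication cells had the highest ratios for Ung (24 and 18.3), Hells (10.5 and 20.0), Mcm2 (9.46 and 13.5) and Mcm5 (6.46 and 10.4). Cdc6 had 2 and 4 UMIs in replication cells and 0 in cells without either set. Rrm2 had 0 in the latter in the plasma-positive library, so neither gene was ranked. In the mitotic set Mki67 (55.2 and 12.4, from 7 and 5 UMIs) and Top2a (25.6 and 9.49, from 13 and 21 UMIs) were high in replication cells too. Mcm6 stood at 46.3 and 70.5 CPM in replication cells, at 79.5 and 75.8 CPM in mitotic cells and at 7.86 and 8.74 CPM in cells without either set. Ung had 0 and 2 UMIs in mitotic cells and stood at 3.78 and 9.76 CPM in replication cells. Mcm2 had 0 UMIs in the 28 plasma-negative mitotic cells but stood at 68.5 CPM in the plasma-positive ones, so its place differed between libraries. Pcna (1.60 and 1.99), Rrm1 (1.36 and 1.88) and Tyms (1.02 and 1.5) had low ratios in replication cells and were higher in mitotic cells: Tyms stood at 152 and 186 CPM there, at 12.2 and 17.6 CPM in replication cells and at 11.9 and 11.7 CPM in cells without either set.

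Rrm2, Cdc6 and Ccne1 had over 50% of their UMIs in mitotic cells in both libraries. Rrm2 had 18 and 46 UMIs in mitotic cells (119 and 113 CPM), 0 and 2 in replication cells and 1 and 0 in the 6201 and 5951 cells without either set. Ccne2 stood at 159 and 186 CPM in mitotic cells against 1.41 and 1.31 CPM in cells without either set, with 29.6% and 52.4% of its UMIs in mitotic cells. All 4 genes were listed with the replication set for their roles in G1 and S phase. Ccnd1 stood at 99.4 and 88.0 CPM in mitotic cells, at 158 and 142 CPM in cells without either set and at 200.3 and 177 CPM in replication cells. Its ratio in mitotic cells was 0.629 (0.352 to 1.04) in the plasma-negative library, from 15 UMIs, which could not be told from 1. In the plasma-positive library it was 0.619 (0.433 to 0.860). Ccnd3 differed between the libraries, at 53.0 and 31.8 CPM in mitotic cells against 46.3 and 43.7 CPM in cells without either set, and Ccnd2 had 0 UMIs in mitotic cells.

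**Figure D3:**
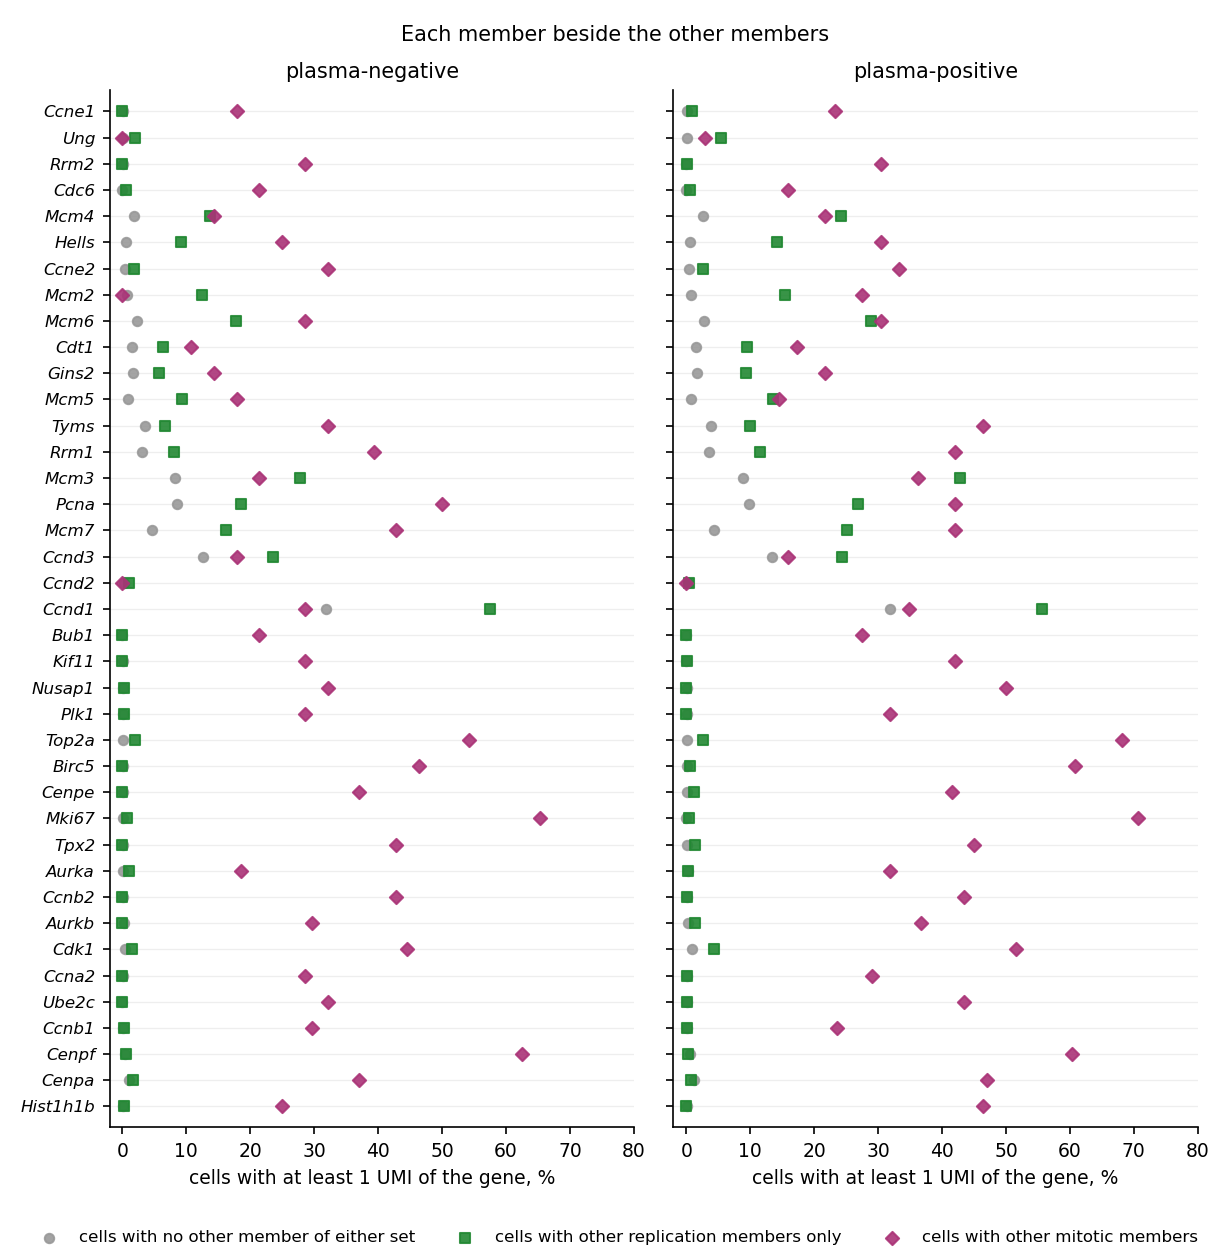
Percent of cells with at least 1 UMI of each gene, in cells classed by the other genes: at least 3 other mitotic UMIs (diamonds), at least 3 other replication but under 3 mitotic UMIs (squares), or 0 UMIs of both sets (circles), not thinned. Median depth was 4753.5 and 5039 UMIs in mitotic cells against 3037.5 and 3405 in the last class; Mcm3, Ung and the 3 D-type cyclins were found more often in the squares than in the diamonds in both libraries, Ccnd1 in 57.5% and 55.7% against 28.6% and 34.8%.

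The mitotic genes went together in both libraries. Top2a stood at 929 and 926 CPM in cells with 3 or more UMIs of the other mitotic genes, against 0.21 and 0.53 CPM in cells without either set. It had a UMI in 54.2% and 68.2% of the former and in 0.048% and 0.168% of the latter, and after thinning in 53.3% and 62.2% against 0.026% and 0.061%. The mitotic gene seen most evenly outside the mitotic cells was Cenpa, at 281 and 237 CPM within and 3.53 and 3.55 CPM in cells without either set, followed by Cdk1 at 237 and 222 CPM within and 1.46 and 2.88 CPM outside. A few cells passed the minimum on 1 gene: 5 of the 28 and 6 of the 69 cells held UMIs of a single mitotic gene, among them 1 cell of each library with Ccnb1 alone.

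Mitotic cells with and without the replication set differed in level in genes that had not been used to separate them. The 40 other S phase genes summed to 5267 and 4976 CPM in mitotic cells that held the replication set, and to 343 (220 to 510) and 599 CPM (481 to 738) in those that did not. Cells without either set stood at 372 and 368 CPM, within the first interval and below the second. Other replication-dependent histones summed to 5156 and 4892 CPM with the replication set and to 657 and 1015 CPM without it. Hist1h1b had 72 and 232 UMIs in the former, in 7 of 14 and 24 of 37 cells, and 0 and 20 UMIs in the latter, in 0 of 14 and 8 of 32 cells. The mitotic genes shifted as well. Top2a made up 21.3% (17.8 to 25.2) and 21.5% (19.4 to 23.7) of the mitotic UMIs of cells with the replication set, and 8.87% (5.88 to 12.7) and 11.5% (9.10 to 14.3) of those without it.

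Cenpf, Cenpa and Ccnb1 went the other way. Cenpf made up 9.15% and 7.92% of the mitotic UMIs with the replication set and 18.8% and 14.2% without it. Ccnb1 made up 2.03% and 0.771% with it and 4.10% and 4.61% without it, and Cenpa 3.86% and 3.51% with it and 7.85% and 7.74% without it. Nusap1 followed Top2a, at 6.1% and 7.99% with the replication set and 2.05% and 3.29% without it. These 5 genes were picked after their values were seen. In plasma-negative cells the intervals of Ccnb1 overlapped (0.979 to 3.71 with and 2.13 to 7.04 without the replication set), as did those of Cenpa and Nusap1. In plasma-positive cells none of the 5 overlapped. These intervals, with those of Top2a, treat every UMI as independent, although a single cell can give many of them. They are therefore too narrow, and whether they overlap cannot decide if the classes differ. Leaving out the cell of each class that was richest in the gene kept their directions. For Ccnb1 in plasma-negative cells, that left 1.52% with and 2.09% without the replication set. Over all 18 mitotic genes, 8 took a larger share with the replication set in both libraries, 6 took a smaller share in both and 4 differed between the libraries. The cells with the replication set were deeper, with medians of 5140.5 and 5916 UMIs against 4480.5 and 4239, and the part of depth in this split was not tested.

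**Figure D4:**
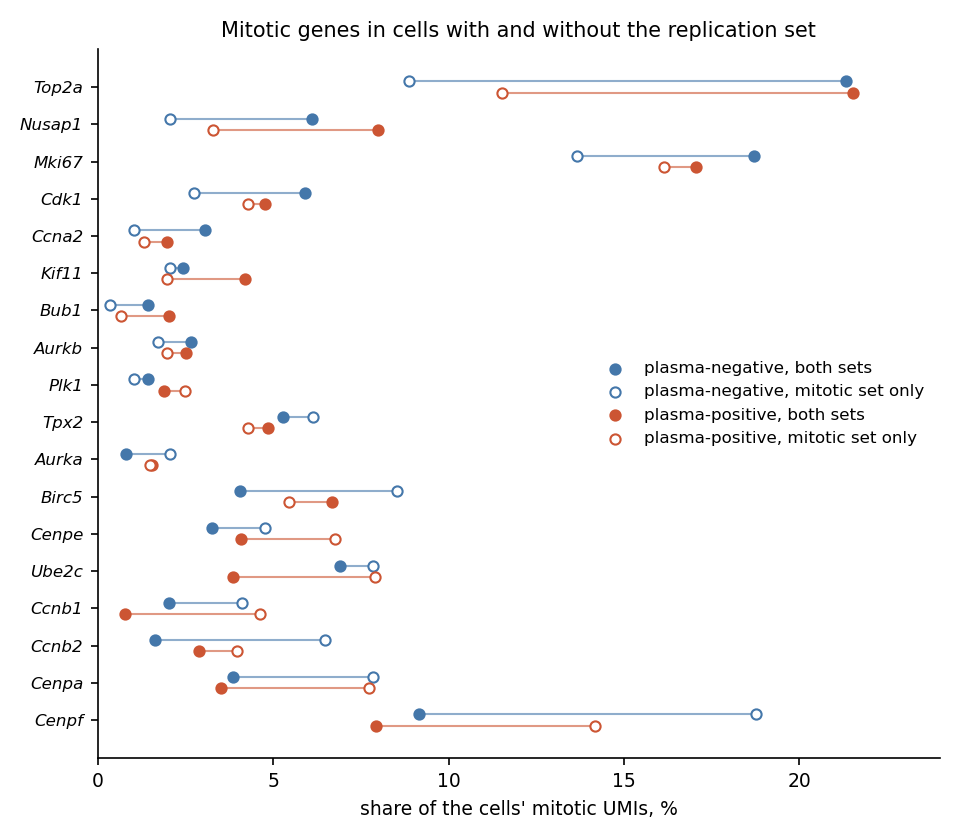
Share of the mitotic UMIs that each of the 18 mitotic genes made up, in mitotic cells that also held the replication set (filled, 14 and 37 cells) and in those that did not (open, 14 and 32 cells). Top2a and Nusap1 lie to the right in the filled cells, and Cenpf, Cenpa and Ccnb1 in the open cells, in both libraries.

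The mitotic cells carried microglia transcripts and none of another type's marker sets. All 28 and all 69 of them had at least 4 of the 11 microglia markers, and none had 3 or more markers of border macrophages, monocytes, neutrophils, lymphocytes, endothelium, mural cells, astrocytes, oligodendrocytes, neurons or erythroid cells. The microglia markers summed to 23474 and 21903 CPM in them, against 30197 and 28905 CPM in cells without either set. Neuron markers had 0 UMIs in the mitotic cells of both libraries, but other lists were higher there. Border macrophage markers stood at 6.63 and 19.6 CPM in mitotic cells (1 and 8 UMIs) against 3.63 and 6.18 CPM in cells without either set. Monocyte markers stood at 13.3 and 34.2 CPM (2 and 14 UMIs, 1.60 to 47.9 and 18.7 to 57.4) against 4.99 and 4.43 CPM. The part of these markers in the results was not tested. Their median mitochondrial share was 1.23% and 1.65%, against 1.11% and 1.30% in cells without either set. When the cells with the highest doublet scores were removed, 0 and 2 of the mitotic cells were among them.

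Wider lists of cycle genes were read beside the 39. By the 1.5-fold rule, 2.07% of all genes at the minimum were higher and 0.936% lower. In the CPM range of the mitotic genes, 6.70% were higher. Of the 50 other G2 and M phase genes, 40 were at the minimum and 20 were at least 1.5-fold higher in the plasma-positive library, 0 lower, with a median log2 ratio of 0.58. The highest ratios were those of Kif23, a motor of cell separation, at 0.405 and 1.33 CPM (3.29), Ttk at 0.376 and 1.00 CPM (2.66), a checkpoint kinase, and Knl1, a kinetochore scaffold, at 1.13 and 2.74 CPM (2.43). The lowest were Incenp at 7.01 and 6.03 CPM (0.86), Ncaph at 13 and 12.7 CPM (0.97) and Pttg1, the securin gene, at 44.0 and 46.4 CPM (1.05). Of the 40 other S phase genes, 36 were at the minimum, 10 were higher and 0 lower, with a median log2 ratio of 0.19. They ran from E2f8, a repressor of the E2F family (0.261 and 1.07 CPM, 4.11), Uhrf1 (0.666 and 1.83 CPM, 2.75) and Chaf1a, a histone chaperone (0.637 and 1.57 CPM, 2.47), down to Gins4 (22.8 and 21.9 CPM, 0.96), Dut (6.86 and 6.48 CPM, 0.94) and Rpa2 (12.1 and 11.1 CPM, 0.92). The order of the lists was that of the 39 genes, with higher ratios in the mitotic than in the replication genes.

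Histone and regulator genes differed less as groups. Of 20 other replication-dependent histones, 15 were at the minimum and 3 were higher, namely Hist1h1a (0.434 and 1.76 CPM, 4.06), Hist1h3c (0.550 and 1.24 CPM, 2.25) and Hist1h2an (1.27 and 2.62 CPM, 2.06). At the other end stood Hist1h4c (17.1 and 15.8 CPM, 0.92), Hist1h1e (124 and 114 CPM, 0.92) and Hist2h4 (2.81 and 2.05 CPM, 0.73). Of 30 cycle regulators, 26 were at the minimum and 2 were higher: Wee1, which restrains Cdk1 (0.956 and 1.79 CPM, 1.87), and E2f1 (1.85 and 2.79 CPM, 1.5), followed by Rbl1 (17.1 and 20.1 CPM, 1.18). E2f2 (3.76 and 3.31 CPM, 0.88), Myc (24.4 and 21.4 CPM, 0.88) and Lin37, a MuvB subunit (21.9 and 18.9 CPM, 0.86), were the lowest. None of the 15 and 26 genes was 1.5-fold lower, against 0.936% of all genes at the minimum. Those higher made up 20% of the histones and 7.69% of the regulators. The share was 2.07% over all genes and 6.70% in the CPM range of the mitotic genes, so that of the regulators was near the latter.

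Among the inhibitors of cyclin-dependent kinases, Cdkn1a was lower in the plasma-positive library but high in the cells rich in mitotic UMIs. All 7 inhibitor genes were at the minimum. Cdkn1a, which encodes p21, stood at 28.6 CPM in plasma-negative and 18.6 CPM in plasma-positive cells, a ratio of 0.65 (0.59 to 0.72), and was the 1 gene of any cycle list that was 1.5-fold lower. Cdkn2a stood at 0.898 and 1.60 CPM (1.78), Cdkn2b at 0.956 and 1.00 CPM (1.05) and Cdkn2c at 9.61 and 9.53 CPM (0.99). Cdkn1b, which encodes p27, stood at 89.1 and 79.0 CPM (0.89) and Cdkn2d at 13.2 and 11.7 CPM (0.89).

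In cells with 10 or more mitotic UMIs, a class set after the values were seen, Cdkn1a reached 664 CPM (502 to 862) among plasma-negative and 435 CPM (358 to 524) among plasma-positive cells. It stood at 27.3 and 15.5 CPM in cells without either set. It had a UMI in 15 of 16 and 29 of 42 of those mitotic cells, with at most 14 and 17 in a cell. The INK4 genes that block Cdk4 and Cdk6 were also higher there: Cdkn2c stood at 225 and 204 CPM against 8.98 and 8.36 CPM, Cdkn2d at 166 and 145 CPM against 11.9 and 10.7 CPM, and Cdkn2a at 47.4 and 74.5 CPM against 0.630 and 0.681 CPM. Cdkn1b was not, at 71.2 and 90.2 CPM against 87.4 and 79.1 CPM. In cells with 10 or more replication UMIs and no mitotic UMI, 8 and 22 cells, Cdkn1a had 0 and 3 UMIs and Cdkn2a had 0, where 0 in the plasma-negative cells allows up to 73.6 CPM. In the plasma-positive library Cdkn1a was thus high in the cells with 10 or more mitotic UMIs, with only 3 UMIs in those 22 cells. The plasma-negative count was too low to tell. Among all mitotic cells, the 7 inhibitor genes summed to 977 and 725 CPM with the replication set and to 457 and 579 CPM without it.

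**Figure D5:**
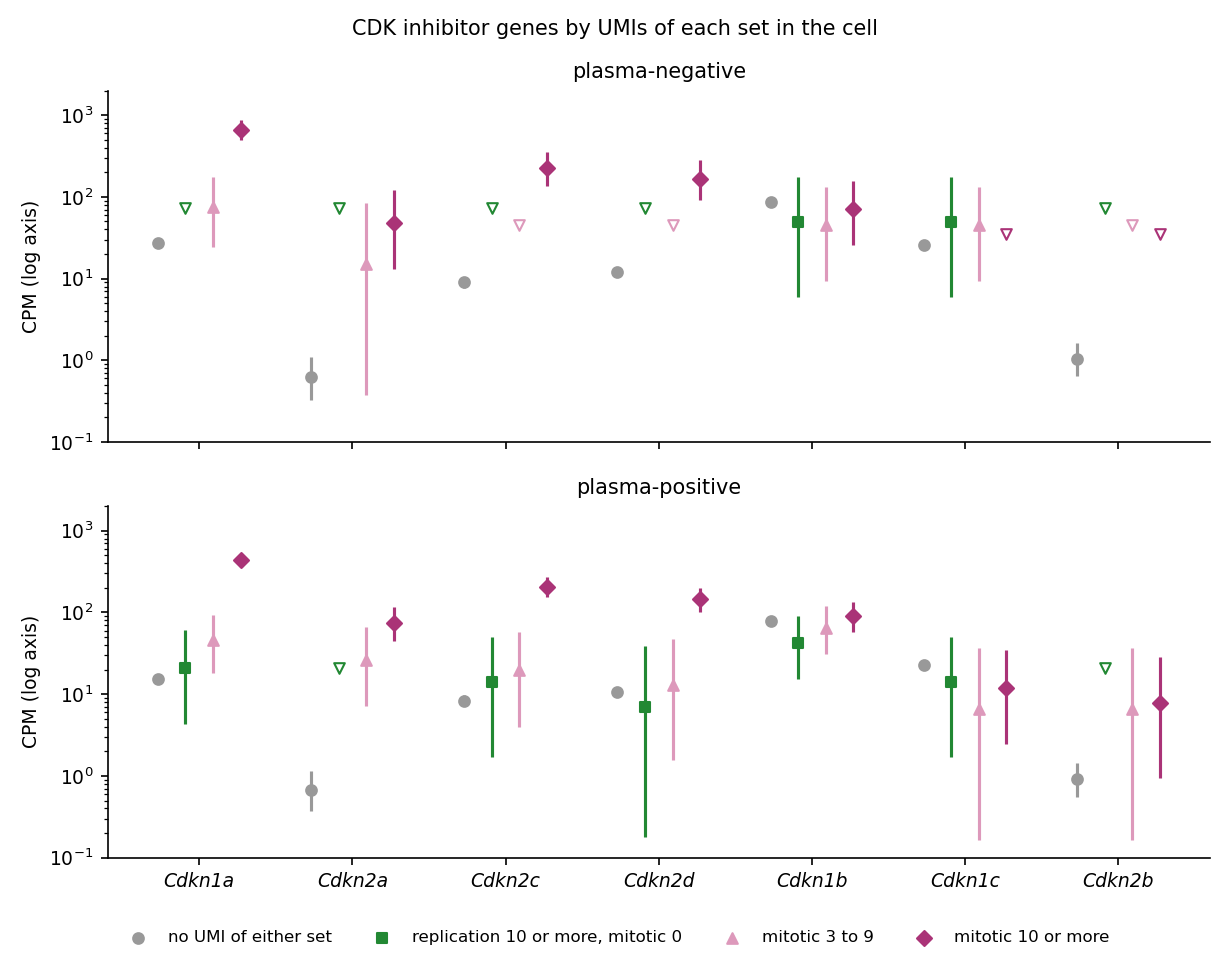
CPM (log axis) of the 7 inhibitor genes in cells with no UMI of either set, with 10 or more replication and 0 mitotic UMIs, with 3 to 9 mitotic UMIs and with 10 or more mitotic UMIs; bars are 95% Poisson intervals, and open triangles mark the limit that a count of 0 allows. In both libraries Cdkn1a, Cdkn2c and Cdkn2d are highest in the last class, with Cdkn1a at 664 and 435 CPM, as is Cdkn2a in the plasma-positive library, while Cdkn1b lies between 42.0 and 90.2 CPM in all classes.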

How the data were processed

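The authors deposited raw UMI counts per gene and cell for both libraries (10x 3' chemistry v3.1, per the labels' protocols). Cell Ranger 6.1.2 wrote them per the file headers, while the submitters' processing notes name version 3.0.1. Genome build, annotation, strand and multi-mapped reads are not given in the sources used here. Cell barcodes were not used here, so shared barcodes were not counted.

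A cell passed with 500 or more UMIs, 300 or more genes and no more than 10% mitochondrial UMIs. This kept 34534518 of 34549522 UMIs (plasma-negative) and 41984977 of 42006454 (plasma-positive). Doublets stayed in, since Scrublet (scanpy 1.11.5) called 0 cells. An alternative removed the 778 and 859 highest-scoring cells. UMIs were summed per library or class. Intervals (scipy 1.17.1) are exact Poisson for CPM, Clopper-Pearson for shares and conditional binomial for ratios. A count of 0 allows 3 counts. A gene was called higher or lower at 1.5-fold with at least 1 CPM in a library, and no test was run. TMM scaling came from edgeR 4.0.16. Scripts were checked on simulated data.

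The 39 genes and the other lists were chosen with earlier results of these data known. All 39 genes are accounted for. The 3 highest and 3 lowest ratios of each other list are named, and the 10 genes outside the cycle lists with the highest ratio in mitotic or replication cells, with at least 10 UMIs there in each library; 1 of these is not reported here. Promoters are 1 per gene, the first listed.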

Additional observations from a re-analysis of the deposited data

How the results depend on the processing

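No paired analysis was possible because 1 library stands for a group, so none could be left out either. Of 272 values of single genes under the alternatives, 247 moved by less than their counting interval, 24 moved further and 1 gene past 1.5-fold fell below 1: Kif11, at 0.827 without the cells holding 3 or more mitotic UMIs (4 and 4 UMIs left). Under the same alternative Cenpf (0.827, 61 and 61 UMIs) and Cenpa (0.979), which had not passed 1.5-fold, also fell below 1. So did Pcna (0.994) and Cdc6 (0.929) when thinned to 1000 UMIs and Mcm7 (0.948) and Cdc6 (0.985) as a mean over cells, while Ccnd2 (1.28, thinned) and Ccnd3 (1.01, TMM) rose above 1. No alternative gave a gene at least 1.5-fold lower. The count of genes at least 1.5-fold higher was 6 of 20 at 5 CPM (3 mitotic, 2 replication; 0.645% of all genes), 1 of 9 at 10 CPM (0 and 1; 0.323%), 11 of 36 at 2-fold (7 and 3; 1.04%) and, in an alternative added after the data were seen, 3 of 19 without the cells with 3 or more mitotic UMIs (1 and 2; 1.54%). The replication count was 3 after thinning to 1000 UMIs, where 16 of 33 genes were higher against 3.61% of all genes. It was 8 at a lower fold, where 25 of 36 genes were higher against 4.16% of all genes. As a mean over cells the summed ratio was 1.11 for the replication and 2.05 for the mitotic set, and without the mitotic cells it was 1.13 and 1.28. At 5 UMIs per set the ratio of shares was 4.02 for the replication set and 0.464 for cells with both sets, from few cells. Cells with both sets numbered 95.4 and 49.4 times the product of the shares (6 cells against 0.0629 and 10 against 0.202). That figure was 11.7 and 8.15 unthinned, 18 and 17 at 2 UMIs, 32.1 (plasma-negative) when thinned to 2000 UMIs and 504 (plasma-negative) at 5 UMIs. The richest 5% of cells held 35.3% and 40.2% of replication and 100% and 97.7% of mitotic UMIs, and with doublet scores removed the richest 1% held 19.5% of the plasma-positive replication UMIs. The other 85 summary values moved by less than their counting interval, or by under 1.5 times for a count. Depth limits the rarest genes most: Bub1, Cdc6, Ccne1, Plk1, Ung and Rrm2 rest on 8 to 20 plasma-negative UMIs.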

Other observations

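Genes outside the cycle lists also followed the mitotic cells. By the lower of the ratios in the libraries, the leading gene was Lockd, a long noncoding RNA gene next to Cdkn1b, at 258 and 179 CPM in the plasma-negative and plasma-positive mitotic cells against 0.263 and 0.146 CPM in cells without either set. Cep55, which acts at the last cut between daughter cells, stood at 113 and 80.7 CPM against 0.158 and 0.0486 CPM. Kifc1, a spindle motor, stood at 66.3 and 53.8 CPM, and Pclaf, which binds Pcna, at 152 and 293 CPM against 1.21 and 0.729 CPM. Cenpm, Rad54b, Trim59, Prr11 and Fignl1 were also among them. Replication cells were led by Chek1, the kinase that answers to stalled forks, at 5.84 and 7.01 CPM against 0.0525 and 0.340 CPM, and by Timeless, a fork protection gene, at 5.42 and 12.6 CPM against 0.315 and 0.389 CPM. Fignl1 came next, at 4.59 and 15.5 CPM, and was the 1 gene named for both kinds of cell. Ulbp1, Wdhd1, Pole2, Cenps, Cenpk, Zgrf1 and Topbp1 followed, with Topbp1 at 47.6 and 62.2 CPM against 17.3 and 19 CPM.

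The 15 interferon response genes summed to 808 and 1912 CPM in the mitotic cells against 323 and 598 CPM in cells without either set, and Ifi27l2a made up much of the sum. Mitotic cells without the replication set stood at 1270 and 3392 CPM, and those with it at 408 and 1084 CPM. A plasma-positive cell with 3 mitotic UMIs held 127 of that library's 782 interferon UMIs in mitotic cells, and another with 4 held 124. Ifi27l2a stood at 497 and 1059 CPM in all mitotic cells, in 12 of 28 and 35 of 69 cells, against 16.3 and 81.0 CPM in cells without either set. In cells with 10 or more mitotic UMIs it stood at 569 and 682 CPM, while Isg15 had 0 and 1 UMIs and Irf7 had 0 in both libraries. Those cells allow up to 35.6 and 11.8 CPM of Irf7 at a count of 0, against 3.63 and 10.5 CPM in cells without either set. Ifi27l2a was singled out after its values were seen, and why it differs from other genes of its list was not tested. Apoe was lower in the pooled mitotic cells, at 53.0 and 758 CPM against 179 and 1125 CPM in cells without either set. In the plasma-positive library, Apoe stood at 1499 CPM in mitotic cells without the replication set and at 343 CPM in those with it. In the plasma-negative library these levels were 57.1 and 49.5 CPM. Of the 310 Apoe UMIs of plasma-positive mitotic cells, 220 were in cells without the replication set. Of these 220, 116 were in a single cell with 3 mitotic UMIs, and 53 in another with 5. The 1499 CPM thus rests mostly on those cells. Of the 90 UMIs in cells with the replication set, 44 were in a single cell.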
